A study of Homo sapiens with 24 samples.

Results

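Late culture under LLY-283 was represented by 2 libraries, the one labelled day 7 repeat 1 and the single library of day 10, which were set against the 3 LLY-283 libraries of day 5. These 5 libraries were chosen from the 24 of the series by treatment and day, and the library labelled LLY-283 day 7 repeat 2 was left out because its profile resembles vehicle. All 24 libraries came from HSJD-DIPG-007, an established diffuse midline glioma (DMG) cell line grown as spheroids, whose genotype label names H3F3A K27M, ACVR1 R206H and PIK3CA MIS. LLY-283, an inhibitor of the protein arginine methyltransferase PRMT5, was given at the dose labelled GI(40), and the controls were vehicle-treated cultures of the same cells sampled on the same days. The labels speak of a single dose, whereas the study's methods describe a change of medium after day 5 with LLY-283 or vehicle given again, so that day 5 precedes this change and days 7 and 10 follow it, and culture time and the new medium cannot be told apart. The study describes the libraries of a group as technical repeats of this 1 line, and p-values therefore measure only the spread between these libraries.

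PRMT5 places symmetric dimethyl marks on arginines of histones, splicing factors and other proteins, and its inhibition changes splicing and transcription in dividing cells. DMG cells carrying a histone H3 mutation resemble early cells of the oligodendrocyte lineage, in which PDGFRA receives the growth signal, the basic helix-loop-helix factors OLIG1 and OLIG2 and several SOX factors hold the precursor program, and BCAN and other proteoglycans are laid into the matrix. A related glial program, that of astrocytes, includes the potassium channel KCNJ10 and the transcription factor SOX9. The comparison asks which genes were at another level in the culture once it had been under LLY-283 for longer than 5 days.

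The libraries held between 17339741 and 21971156 counts in the 5 LLY-283 samples and between 13835205 and 18662925 in the 5 vehicle samples set beside them (3 of day 5, day 7 repeat 1 and day 10). PRMT5 itself, whose protein and not whose RNA is the target of the compound, was at 82.6, 82.1 and 81.8 CPM (gene counts scaled to a common library size by the TMM method) at day 5 and at 80.6 and 80.8 CPM at days 7 and 10. The library labelled LLY-283 day 7 repeat 2 lay at the level of vehicle and that labelled vehicle day 7 repeat 2 between the treatments, and neither entered a main test. The vehicle library of day 10 also stood apart, and comparisons with late vehicle are therefore given by day as well for several genes and lists. Of 19 oligodendrocyte precursor markers, 14 passed the filter on low counts, while the lineage factor SOX10 had a mean of 0.192 CPM at day 5. All 12 microglia and blood markers were under 1 CPM in the 10 libraries, 5 of them at 0 throughout.

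Between the late and day 5 LLY-283 libraries, 15 of 17606 genes passed an adjusted p of 0.05 in quasi-likelihood F tests run in edgeR (p-values adjusted by the Benjamini-Hochberg method), which is 0.0852% of the genes tested. Of these, 4 were higher (0.0227%) and 11 were lower (0.0625%) in late culture. The lower genes included the potassium channel KCNJ10, the precursor genes BCAN and PDGFRA, and the collagen gene COL9A1, with log2 differences from -0.39 (PHLDA1) to that of KCNJ10, described next, among those named. The higher genes named were EXOC3L2, MYOF and WFS1, with changes between 0.60 and 1.09. The rule for naming called genes required both late libraries outside the day 5 range on the same side. Their separation from day 5, given below, is therefore no added support, and the test also favors late libraries that lie close together. Over all genes tested, both late libraries were above the day 5 range in 11.3% and below it in 14.8%. At an unadjusted p under 0.05 there were 882 genes higher and 880 lower. The late group spans 3 days, so its spread includes any change from day 7 to day 10. Without day 5 repeat 1, 2 or 3, the test called 0, 7 and 3 genes, with 1328 genes at an unadjusted p under 0.05 in the first case.

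KCNJ10, which encodes an inwardly rectifying potassium channel of glia, had the largest named decrease. Its level was 48.4, 52.5 and 46.8 CPM in the day 5 libraries, 24.3 CPM at day 7 and 24.4 CPM at day 10. Both late libraries were below all day 5 libraries and nearly equal to each other. KCNJ10 fell by 1.00 on the log2 scale (SE 0.077, edgeR adjusted p 0.0012), from counts between 310 and 991 in the 10 LLY-283 and vehicle libraries. The gene lies at chr1:159998651-160070160 on the minus strand (GRCh38, GENCODE v44).

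FXYD6, a small regulator of the sodium and potassium pump, was at 35, 37.3 and 38.3 CPM at day 5 and at 21 and 18.1 CPM at days 7 and 10. The late libraries were again below the whole range of day 5, by -0.90 on the log2 scale (SE 0.093, edgeR adjusted p 0.0054). Part of its exons, 390 bases, is shared on the same strand with the readthrough gene FXYD6-FXYD2, so its count is uncertain to that extent. COL9A1, a chain of type IX collagen, was at 17.2, 18.7 and 20 CPM at day 5 and at 10.8 and 10.2 CPM late, a difference of -0.82 (SE 0.11, edgeR adjusted p 0.025).

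Among the precursor genes, BCAN encodes the proteoglycan brevican. It was at 646, 714 and 654 CPM at day 5, and it was lower in both late libraries, at 404 and 355 CPM (log2 difference -0.81, SE 0.074, edgeR adjusted p 0.0032). PDGFRA, the receptor for platelet-derived growth factor, was at 211, 210 and 201 CPM at day 5 and at 152 and 139 CPM late (-0.50, SE 0.062, edgeR adjusted p 0.017). In both genes the late libraries lay below the day 5 range with no overlap. PDGFRA shares 1533 exon bases on the same strand with the gene ENSG00000282278, and the exons of BCAN overlap others on the opposite strand, whose reads may have been counted with it since the strand setting is not given in the sources used here.

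The other named decreases were smaller. ABLIM1, an actin-binding protein, was at 68.8, 67.1 and 69.3 CPM at day 5 and at 48.4 and 51.2 CPM late (-0.44, edgeR adjusted p 0.025). DOCK10, a guanine nucleotide exchange factor, was at 135, 137 and 140 CPM at day 5 and at 104 and 96.7 CPM late (-0.44, edgeR adjusted p 0.025). PHLDA1, a gene induced by mitogen signaling, was at 621, 585 and 585 CPM at day 5 and at 457 and 447 CPM late (-0.39, edgeR adjusted p 0.041). In each case the day 7 and day 10 values were closer to each other than to any day 5 value.

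The 3 named increases did not share a list. EXOC3L2, a relative of the exocyst subunit EXOC3, was at 7.17, 7.57 and 6.56 CPM at day 5 and at 13 and 17 CPM late (1.09, SE 0.14, edgeR adjusted p 0.021). MYOF, a membrane repair protein of the ferlin family, was at 32.2, 35.3 and 32.8 CPM at day 5 and at 57.2 and 50.6 CPM late (0.70, SE 0.08, edgeR adjusted p 0.0097). WFS1, the endoplasmic reticulum membrane protein wolframin, was at 24, 23.7 and 26.5 CPM at day 5 and at 37.2 and 37 CPM late (0.60, SE 0.08, edgeR adjusted p 0.025). Both late libraries were above all day 5 libraries in each of these genes, as the rule for naming them required.

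**Figure D1:**
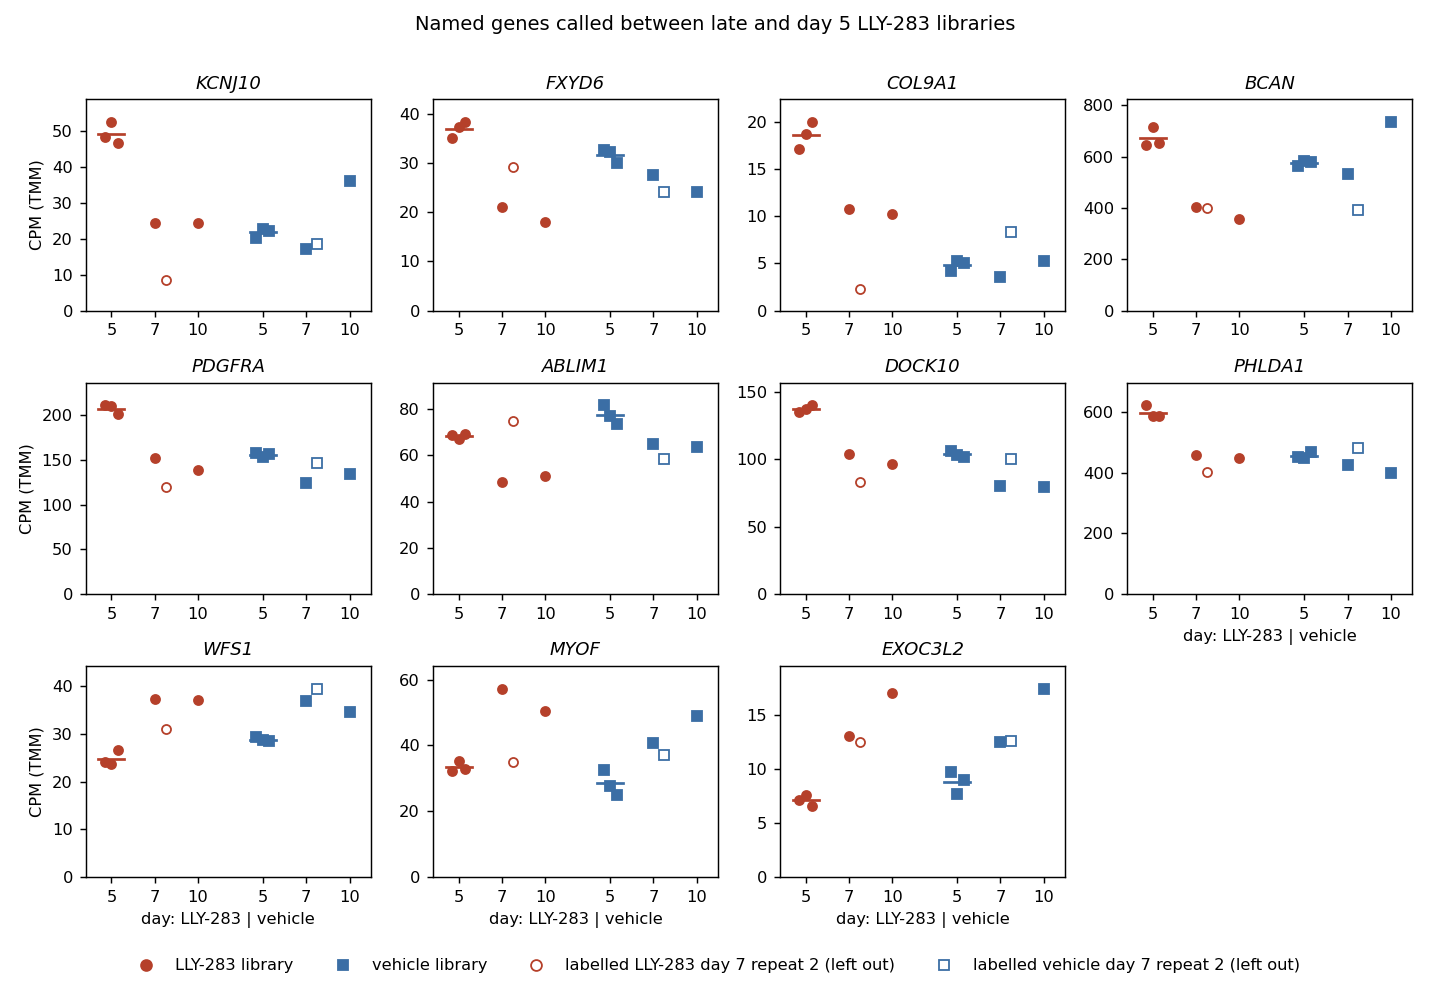
Level of 11 named genes in each library, in CPM scaled by the TMM method, against day for LLY-283 (circles) and vehicle (squares). Short lines are the means of the 3 day 5 libraries, and open symbols are the libraries labelled day 7 repeat 2, which were left out. KCNJ10 lay between 46.8 and 52.5 CPM in the LLY-283 libraries of day 5 and at 24.3 and 24.4 CPM at days 7 and 10.

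A further 3 called features fell outside the rule for naming genes and are given after their values were seen. ENSG00000280237, an identifier with no entry in the annotation used here, was at 30.3, 29.9 and 33.1 CPM at day 5 and at 17.8 and 17.2 CPM late (log2 difference -0.82, edgeR adjusted p 0.0078). ENSG00000249319 had 23 to 27 counts in the day 5 libraries and 0 in both late ones, at least 9-fold lower when 3 counts per library are taken as the floor. A second annotation entry at the MKKS locus, ENSG00000285508, had 0 counts at day 5 and 31 and 54 counts late, at least 13.4-fold higher by the same floor. The last 2 share exons with other genes on the same strand, so that estimated counts can pass between them and their neighbors, and they are reported as uncertain.

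For 11 named genes RefSeq gives a promoter window of 250 bases before to 50 bases after the start. The letters CANNTG (the E-box, read by basic helix-loop-helix factors such as OLIG2) were searched on both strands and occurred in 7 of the 11 windows (63.6%), against 68.7% of all 35116 windows of the table. ACAAAG, a core of the SOX motif, occurred in 1 of the 11 (9.09%), against 16.1% of all windows. The more specific E-box CAGCTG, which lies within CANNTG, occurred in 1 of the 11, against 17.9% of all. The windows of 3 genes that fell are shown as examples, KCNJ10 with ACAAAG alone and FXYD6 and PDGFRA with CANNTG alone, in capitals on either strand; a match is a description of the sequence and not a site. In order, they are KCNJ10 at chr1:160070111-160070410 on the minus strand, FXYD6 at chr11:117877381-117877680 on the minus strand and PDGFRA at chr4:54229043-54229342 on the plus strand (RefSeq, GRCh38.p14), written 5′ to 3′.
KCNJ10: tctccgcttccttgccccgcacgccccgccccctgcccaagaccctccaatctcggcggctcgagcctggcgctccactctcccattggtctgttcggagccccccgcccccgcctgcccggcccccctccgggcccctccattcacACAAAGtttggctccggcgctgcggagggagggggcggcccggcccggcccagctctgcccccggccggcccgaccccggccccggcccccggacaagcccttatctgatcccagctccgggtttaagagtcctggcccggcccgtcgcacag
FXYD6: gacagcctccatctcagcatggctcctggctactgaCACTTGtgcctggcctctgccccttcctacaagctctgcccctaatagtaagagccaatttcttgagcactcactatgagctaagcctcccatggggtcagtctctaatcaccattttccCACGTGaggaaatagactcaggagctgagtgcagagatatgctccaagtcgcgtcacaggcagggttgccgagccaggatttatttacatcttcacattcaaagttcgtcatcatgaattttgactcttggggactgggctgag
PDGFRA: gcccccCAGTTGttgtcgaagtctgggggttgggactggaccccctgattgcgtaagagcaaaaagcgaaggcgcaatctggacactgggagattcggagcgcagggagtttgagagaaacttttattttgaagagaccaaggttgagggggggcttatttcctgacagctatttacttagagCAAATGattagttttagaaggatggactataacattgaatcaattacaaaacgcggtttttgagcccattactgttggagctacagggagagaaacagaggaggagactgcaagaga

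The vehicle libraries of the same days show how far such changes also occurred without LLY-283. Late vehicle against day 5 vehicle gave 0 of 16511 genes past the threshold in edgeR (0%), 1603 at an unadjusted p under 0.05, and 29 genes in DESeq2. The spread in this test includes the change from day 7 to day 10, which was large in vehicle for BCAN and KCNJ10, given next. The 0 therefore does not show that vehicle changed less than LLY-283. BCAN was at 565, 584 and 579 CPM in vehicle at day 5, at 530 CPM at day 7 and at 734 CPM at day 10, so the late vehicle libraries lay on either side of the day 5 range. KCNJ10 was at 20.3, 22.8 and 22.2 CPM at day 5, at 17.1 CPM at day 7 and at 36.1 CPM at day 10. In vehicle, WFS1, MYOF and EXOC3L2 were above their day 5 range in both late libraries, WFS1 at 36.9 and 34.6 CPM, MYOF at 40.7 and 48.8 CPM and EXOC3L2 at 12.5 and 17.4 CPM. PDGFRA at 124 and 134 CPM, DOCK10 at 80.4 and 79.1 CPM and ABLIM1 at 65.1 and 63.8 CPM were below theirs, as were FXYD6 at 27.5 and 24.1 CPM and PHLDA1 at 425 and 400 CPM.

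The difference between the late change in LLY-283 and that in vehicle was tested directly. The test called 0 of 18078 genes in edgeR (0%), 679 at an unadjusted p under 0.05, and 9 genes in DESeq2. BCAN (-0.95 on the log2 scale, SE 0.17) and FXYD6 (-0.62, SE 0.13) had edgeR adjusted p of 0.65 and 0.82. For KCNJ10 the difference was -1.29 (SE 0.35, edgeR adjusted p 0.98). For MYOF the difference was 0.04 (SE 0.16, edgeR adjusted p 0.99), with an interval that spans both directions. Taken by day, with a single late library per treatment, the differences at days 7 and 10 were -0.64 and -1.75 for KCNJ10 and -0.58 and -1.28 for BCAN. They were -0.58 and -0.64 for FXYD6, -0.3 and -0.99 for COL9A1, and 0.3 and -0.19 for MYOF. With day as a term in the fit, an alternative chosen after the values were seen, 78 genes were called, 12 higher and 66 lower. FXYD6 (edgeR adjusted p 0.0076) and HES6 (0.018) were then called lower, and BCAN was not (0.17). Without the vehicle library of day 7, which leaves the vehicle of day 10 as the late control, the test called 660 genes, and without that of day 10 it called 6.

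Set against day 5 separately, the late libraries differed in how many genes they moved. The day 7 library differed from day 5 in 564 of 18603 genes (3.03%), 157 higher (0.844%) and 407 lower (2.19%), and the day 10 library in 1984 of 18548 (10.7%), 1043 higher (5.62%) and 941 lower (5.07%). In these fits the single late library was assumed to vary like the day 5 repeats, so they compare libraries and not conditions. The genes named above by the rule differed from day 5 in the same direction on each day. That followed from the rule, which required both late libraries outside the day 5 range on the same side. It is therefore not a further result. Genes given below for a single day were chosen after their values were seen unless they were among the 3 of smallest p in their list. The shares over all genes in this paragraph are the background for each LLY-283 list count given below for a single day. A list count near its share says nothing particular about that list.

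Most tested oligodendrocyte precursor markers were lower than at day 5 on each late day under LLY-283, and in vehicle at day 7. Of 14 tested in the late comparison, 3 were called lower and 0 higher, with a median log2 difference of -0.23 against 0.01 over all genes. Both late libraries were below the day 5 range in 9 of the 14 and above it in 0, and over all genes tested 14.8% were below and 11.3% above. Against day 5, 9 of 16 were called lower at day 7 and 7 of 15 at day 10, with 0 higher on either day and a median of -0.25 on each. The transcription factors OLIG1 and OLIG2 were lower on both days and lower at day 10 than at day 7. OLIG1 was at 224, 226 and 223 CPM at day 5, at 184 CPM at day 7 and at 142 CPM at day 10 (log2 difference from day 5 -0.26 and -0.67, edgeR adjusted p 0.009 and 7.9e-08). OLIG2 was at 330, 328 and 320 CPM at day 5, at 279 CPM at day 7 and at 230 CPM at day 10 (-0.20 and -0.51, edgeR adjusted p 0.044 and 2.1e-06). The factors SOX6 and SOX8 were also called lower on both days, with log2 differences of -0.38 and -0.40 at day 7 and of -0.25 and -0.26 at day 10.

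Not every precursor marker moved. CSPG4, the NG2 proteoglycan, was at 1340, 1350 and 1360 CPM at day 5 and at 1280 and 1340 CPM late (-0.03, edgeR adjusted p 0.9). PTPRZ1, a receptor phosphatase, was at 3980, 3980 and 3900 CPM at day 5, at 3130 CPM at day 7 and at 4180 CPM at day 10, so that only the day 7 library was called lower. The summed level of the list was between 7900 and 8030 CPM at day 5, 6670 CPM at day 7 and 7410 CPM at day 10. In vehicle the same sum was between 6590 and 6820 CPM at day 5, 5970 CPM at day 7 and 7370 CPM at day 10. The median log2 change of the tested markers in vehicle was -0.14 at day 7 and -0.06 at day 10, against -0.25 on each day under LLY-283. By sign alone, 13 of 14 were lower and 1 higher in vehicle at day 7, and 7 lower and 7 higher at day 10. Under LLY-283, 14 of 16 were lower and 2 higher at day 7, and 12 of 15 lower and 3 higher at day 10. Between treatments, the change from day 5 to day 7 differed by a median of -0.01 (LLY-283 less vehicle). It was negative in 8 of 15 markers and positive in 7, and BCAN lay apart from the median at -0.58. In a bulk sample, fewer cells of a type and less RNA per cell cannot be told apart.

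The precursor genes were also compared between treatments at day 10. The change from day 5 to day 10 differed between LLY-283 and vehicle in 1168 of 18715 genes (6.24%), with LLY-283 the higher in 614 (3.28%) and the lower in 554 (2.96%). Of 14 precursor markers, 4 were called lower and 1 higher. The change from day 5 to day 10 was lower under LLY-283 than in vehicle for BCAN (log2 difference -1.28), SOX8 (-0.51) and PDGFRA (-0.38). These are differences of change and not of level. PDGFRA was at 139 CPM under LLY-283 and at 134 CPM in vehicle at day 10, from day 5 means of 208 and 156 CPM. The marker called higher was NCAN, the proteoglycan neurocan (0.49, edgeR adjusted p 0.00028), whose day 10 change was -0.06 under LLY-283 and -0.54 in vehicle. For OLIG1 and OLIG2 the differences were 0.07 (edgeR adjusted p 0.75) and 0.14 (edgeR adjusted p 0.32), and in vehicle they were called lower at day 10 by -0.72 and -0.64. For this comparison each treatment has 1 library at day 10.

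**Figure D2:**
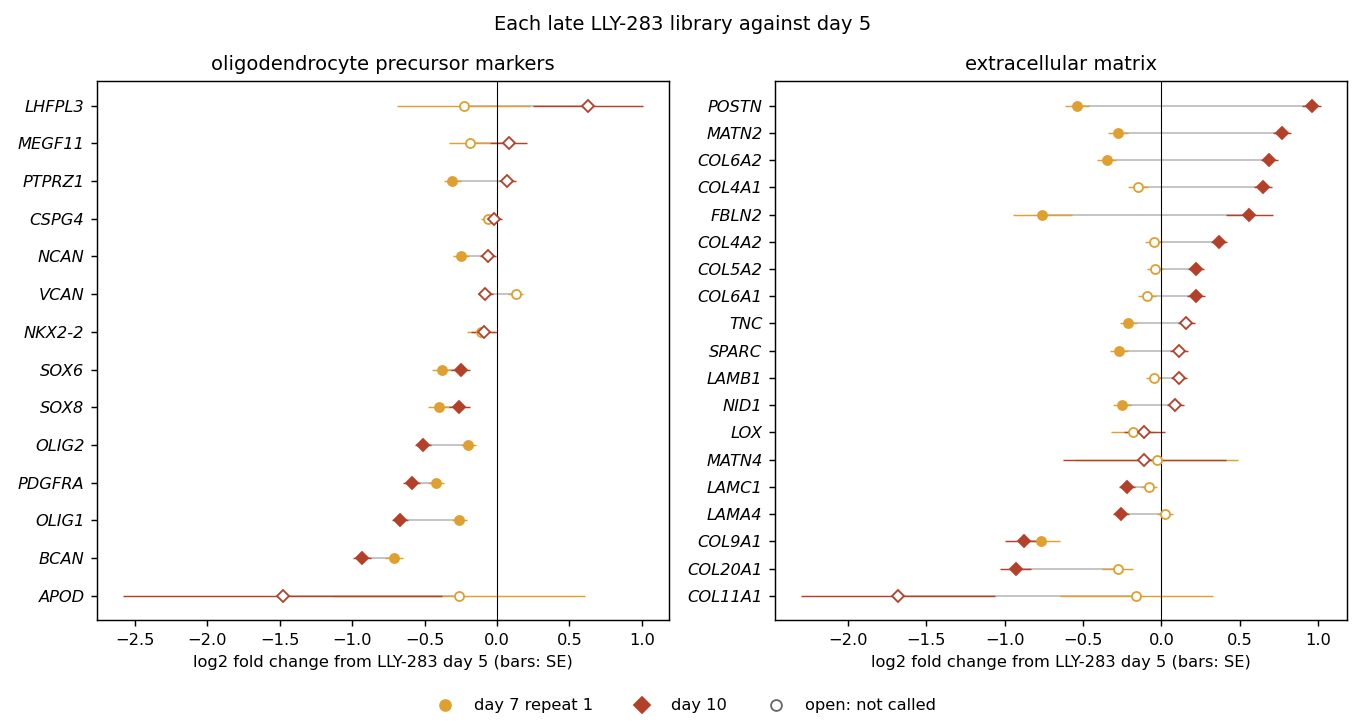
Log2 fold change of the day 7 (circles) and day 10 (diamonds) LLY-283 libraries from the mean of day 5 for tested oligodendrocyte precursor markers and extracellular matrix genes. Bars are standard errors and open symbols did not pass an adjusted p of 0.05. BCAN and PDGFRA lie to the left on both days, whereas POSTN and MATN2 lie to the left at day 7 and to the right at day 10.

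Several extracellular matrix genes (POSTN, MATN2, COL6A2 and FBLN2) were called lower at day 7 and higher at day 10. COL9A1, the 1 of 19 called in the late comparison, was lower on both days (-0.77 and -0.88). At day 7, 8 of 19 were called lower and 0 higher, with a median of -0.18. At day 10, 8 were called higher and 4 lower, with a median of 0.11. POSTN, the matricellular protein periostin, was at 79.2, 74.4 and 69.2 CPM at day 5, at 50 CPM at day 7 and at 146 CPM at day 10. It was lower at day 7 (-0.54, edgeR adjusted p 0.00079) and higher at day 10 (0.96, edgeR adjusted p 1.7e-08), and the mean of the late libraries did not show this (0.41, SE 0.51). MATN2, the matrix adaptor matrilin 2, was at 70.6, 70.5 and 67.6 CPM at day 5, at 56.2 CPM at day 7 and at 120 CPM at day 10. The basement membrane collagen COL4A1 was at 125, 114 and 121 CPM at day 5, at 106 CPM at day 7 and at 189 CPM at day 10, and the collagen VI chain COL6A2 at 131, 138 and 143 CPM, at 106 CPM and at 223 CPM.

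The step from day 7 to day 10 was tested with the spread of the day 5 repeats, an alternative chosen after the values were seen. It called 1403 of 18803 genes (7.46%), 879 higher (4.67%) and 524 lower (2.79%), and of the matrix genes 11 were higher and 2 lower. POSTN rose by 1.51 and MATN2 by 1.06 over this step (edgeR adjusted p 5.2e-08 and 1.4e-07). In vehicle the median log2 change of the matrix genes over this step was 0.35, against 0.31 under LLY-283. From day 5 to day 10 it was 0.14 in vehicle, where MATN2 stood at 91.2 CPM. Between treatments, the change from day 5 to day 10 in these genes differed by a median of -0.1 (LLY-283 less vehicle). The difference was negative in 13 of 22 genes and positive in 9, and single genes lay far from the median, COL9A1 at -0.99. Fibroblast markers, which could mark other cells, summed to between 1180 and 1190 CPM at day 5, 1200 CPM at day 7 and 1140 CPM at day 10, 3 of 16 were called higher at day 10 and 0 lower, and their part in the matrix values was not tested. FN1, a member of that list, was between 0.745 and 2.22 CPM at day 5 and at 4.18 and 4.35 CPM late, while it was at 58.7 CPM in vehicle day 5 repeat 3 and at 29.5 CPM in vehicle day 7 repeat 1.

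Among 14 tested astrocyte markers KCNJ10 alone was called in the late comparison, and the members moved both ways. The transcription factor SOX9 was at 341, 344 and 344 CPM at day 5 and at 278 and 259 CPM late (-0.34, edgeR adjusted p 0.058). S100B, a calcium-binding protein, was at 271, 251 and 251 CPM at day 5, at 301 CPM at day 7 and at 303 CPM at day 10 and was called higher on each day. CLU, the secreted chaperone clusterin, was at 178, 172 and 174 CPM at day 5, at 141 CPM at day 7 and at 270 CPM at day 10, lower and then higher. AGT, angiotensinogen, was at 55.9, 57.1 and 48.9 CPM at day 5, at 47.7 CPM at day 7 and at 103 CPM at day 10 (0.92 at day 10, edgeR adjusted p 4.7e-07). The summed level of the astrocyte list was between 1830 and 1880 CPM at day 5, 1840 CPM at day 7 and 2010 CPM at day 10. In vehicle this sum was between 1630 and 1660 CPM at day 5, 1630 CPM at day 7 and 2000 CPM at day 10. The median log2 change from day 5 in vehicle was 0.02 at day 7 and 0.49 at day 10, against -0.15 and 0.01 under LLY-283. The changes differed between treatments by a median of -0.01 at day 7 and -0.49 at day 10 (LLY-283 less vehicle).

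The Notch pathway, by which neighboring cells hold each other in an undifferentiated state, had 0 of 12 genes called in the late comparison. The ligands DLL3 and DLL1 were lowest at day 10. DLL3 was at 43.3, 44 and 42.3 CPM at day 5, at 35.6 CPM at day 7 and at 23.9 CPM at day 10 (-0.86 at day 10, edgeR adjusted p 3.9e-07). DLL1 was at 13.1, 13.9 and 14.4 CPM at day 5, at 11.7 CPM at day 7 and at 6.04 CPM at day 10 (-1.20, edgeR adjusted p 1.4e-05). HES6, a neurogenic member of the HES family, was at 138, 146 and 156 CPM at day 5 and at 111 and 110 CPM late (-0.39, edgeR adjusted p 0.054), and was called lower on each day taken alone. The target HEY1 was at 44.1, 36.6 and 41.1 CPM at day 5, at 30.1 CPM at day 7 and at 56.5 CPM at day 10, called lower and then higher. Over the 12 tested genes the median log2 change from day 5 was -0.2 at day 7 and 0.05 at day 10. In vehicle the median was -0.1 at day 7 and 0.21 at day 10. Between treatments, the day 10 change differed by a median of -0.21 (LLY-283 less vehicle), negative in 8 of the 12 genes and positive in 4.

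Cell cycle genes were called on single late days and not in the late comparison. Of 39 DNA replication genes, 0 were called in the late comparison, 5 were higher and 0 lower at day 7, and 3 were higher and 2 lower at day 10. RRM2, a subunit of ribonucleotide reductase, was at 136, 133 and 127 CPM at day 5 and at 161 and 150 CPM late, and was called higher on each day alone. Of 35 mitosis genes, 0 were called in the late comparison or at day 7 and 11 were lower at day 10, with a median of -0.14 at day 10, where 5.07% of all genes were called lower. ASPM, a spindle pole protein, was at 397, 405 and 417 CPM at day 5, at 361 CPM at day 7 and at 314 CPM at day 10 (-0.38 at day 10, edgeR adjusted p 8.9e-05). In the vehicle library of day 10 the values were larger, with 30 of 39 replication genes and 29 of 35 mitosis genes called lower among 5150 of 17174 genes called (30%), of which 2620 were lower (15.3%). The day 10 change was higher under LLY-283 than in vehicle by a median of 0.31 in replication genes and 0.18 in mitosis genes. The levels were not higher. At day 10 the 2 lists summed to 5000 and 4880 CPM under LLY-283 and to 5110 and 5380 CPM in vehicle. At day 5, 38 of 39 replication genes and 34 of 35 mitosis genes were called lower with LLY-283 than with vehicle, where 19.1% of all genes were.

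Other pathways had 0 genes called in the late comparison, apart from PHLDA1 in the MAPK feedback list. The cell cycle inhibitor CDKN1A, a p53 target, was at 236, 232 and 223 CPM at day 5. It was at 279 and 299 CPM late, above the day 5 range (0.34, edgeR adjusted p 0.054). In vehicle CDKN1A was at 162, 163 and 163 CPM at day 5 and at 198 and 259 CPM late (0.49, edgeR adjusted p 0.43). Its late change differed between treatments by -0.16 (edgeR adjusted p 0.98). Taken by day, this difference was 0.03 at day 7 and -0.3 at day 10. Over 33 tested p53 targets the median late log2 difference was 0.03 under LLY-283 and 0.25 in vehicle. The change of these targets from day 5 differed between treatments by a median of -0.05 at day 7 and -0.3 at day 10 (LLY-283 less vehicle). GDF15, a stress-induced cytokine, was at 11.5, 12.8 and 12.2 CPM at day 5, at 10.7 CPM at day 7 and at 33.8 CPM at day 10 (1.46 at day 10, edgeR adjusted p 6e-09). In the vehicle of day 10 GDF15 was at 97.9 CPM. Among 20 cholesterol synthesis genes, 5 were called lower and 1 higher at day 10, and 1 was higher and 0 lower at day 7. ACAT2, an early enzyme of the pathway, was at 58.4, 62.2 and 57.5 CPM at day 5, at 74.1 CPM at day 7 and at 49.3 CPM at day 10, higher (0.35, edgeR adjusted p 0.005) and then lower (-0.28, edgeR adjusted p 0.011). In vehicle, 17 of the 20 were called higher at day 7, where 0.926% of all genes were, and 17 lower at day 10.

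Genes of growth signaling and lineage followed several courses. In the MAPK feedback list, which holds genes induced by and restraining that pathway, PHLDA1 was called lower of 14 in the late comparison, with 3 lower and 1 higher at day 7 and 4 lower and 2 higher at day 10. ETV1, an ETS factor downstream of MAPK signaling, was at 339, 345 and 328 CPM at day 5 and at 269 and 287 CPM late (-0.27, edgeR adjusted p 0.11), below the day 5 range in both libraries. Of 20 immediate early genes, 4 were lower and 0 higher at day 7, and 2 lower and 3 higher at day 10. EGR1, an immediate early transcription factor, was at 134, 129 and 150 CPM at day 5, at 90.2 CPM at day 7 and at 215 CPM at day 10, called lower and then higher. ID2, an inhibitor of basic helix-loop-helix factors, was at 9, 7.89 and 8.38 CPM at day 5, at 7.34 CPM at day 7 and at 3.71 CPM at day 10 (-1.19 at day 10, edgeR adjusted p 0.00028). DCX, a microtubule protein of young neurons, was at 2.46, 1.48 and 2.07 CPM at day 5 and at 0.589 and 0.412 CPM late (-1.99, SE 0.37, edgeR adjusted p 0.081), a low level at which the late comparison did not pass the threshold. In vehicle the median log2 change of the MAPK feedback genes was -0.08 at day 7 and -0.18 at day 10, against -0.08 and -0.06 under LLY-283. For the immediate early genes it was -0.02 and 0.01 in vehicle, against -0.11 and -0.1 under LLY-283. The median treatment difference (LLY-283 less vehicle) at days 7 and 10 was 0.02 and 0.18 for MAPK feedback and -0.16 and -0.01 for immediate early genes.

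Some lists moved at day 10 with few or 0 calls at day 7. Of 21 interferon response genes, 6 were called higher at day 10 and 0 lower. BST2, an antiviral membrane protein, was at 5.73, 5.82 and 4.24 CPM at day 5, at 5.03 CPM at day 7 and at 11.4 CPM at day 10 (1.11, edgeR adjusted p 0.00025). Of 20 lysosome genes, 6 were called higher and 1 lower, and the protease gene CTSL was at 24.8, 21.8 and 22.7 CPM at day 5, at 25.8 CPM at day 7 and at 30.5 CPM at day 10. Of the 13 mitochondrially encoded genes, 5 were called higher and 0 lower at day 10, with a median of 0.36. NGFR, the neurotrophin receptor p75, went the other way, from 23.6, 25.5 and 25.7 CPM at day 5 and 27.6 CPM at day 7 to 9.47 CPM at day 10 (-1.41, edgeR adjusted p 7.1e-08).

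The vehicle library of day 10 had calls in the same lists. In it, 10 interferon response genes were called higher and 1 lower of 21, 12 lysosome genes higher and 2 lower of 20, and 6 mitochondrially encoded genes higher and 0 lower of 13, beside 14.7% of all genes higher and 15.3% lower. BST2 was at 15.1 CPM in vehicle at day 10. NGFR was at 50.4, 55.4 and 47.8 CPM in vehicle at day 5 and at 24.4 CPM at day 10 (-1.06, edgeR adjusted p 1.5e-09), and its day 10 change differed between treatments by -0.34 (edgeR adjusted p 0.22). In that test of the treatment difference, 0 were higher and 2 lower of 22 interferon genes, 0 higher and 3 lower of 20 lysosome genes, and 0 of the 13 mitochondrially encoded genes were called.

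**Figure D3:**
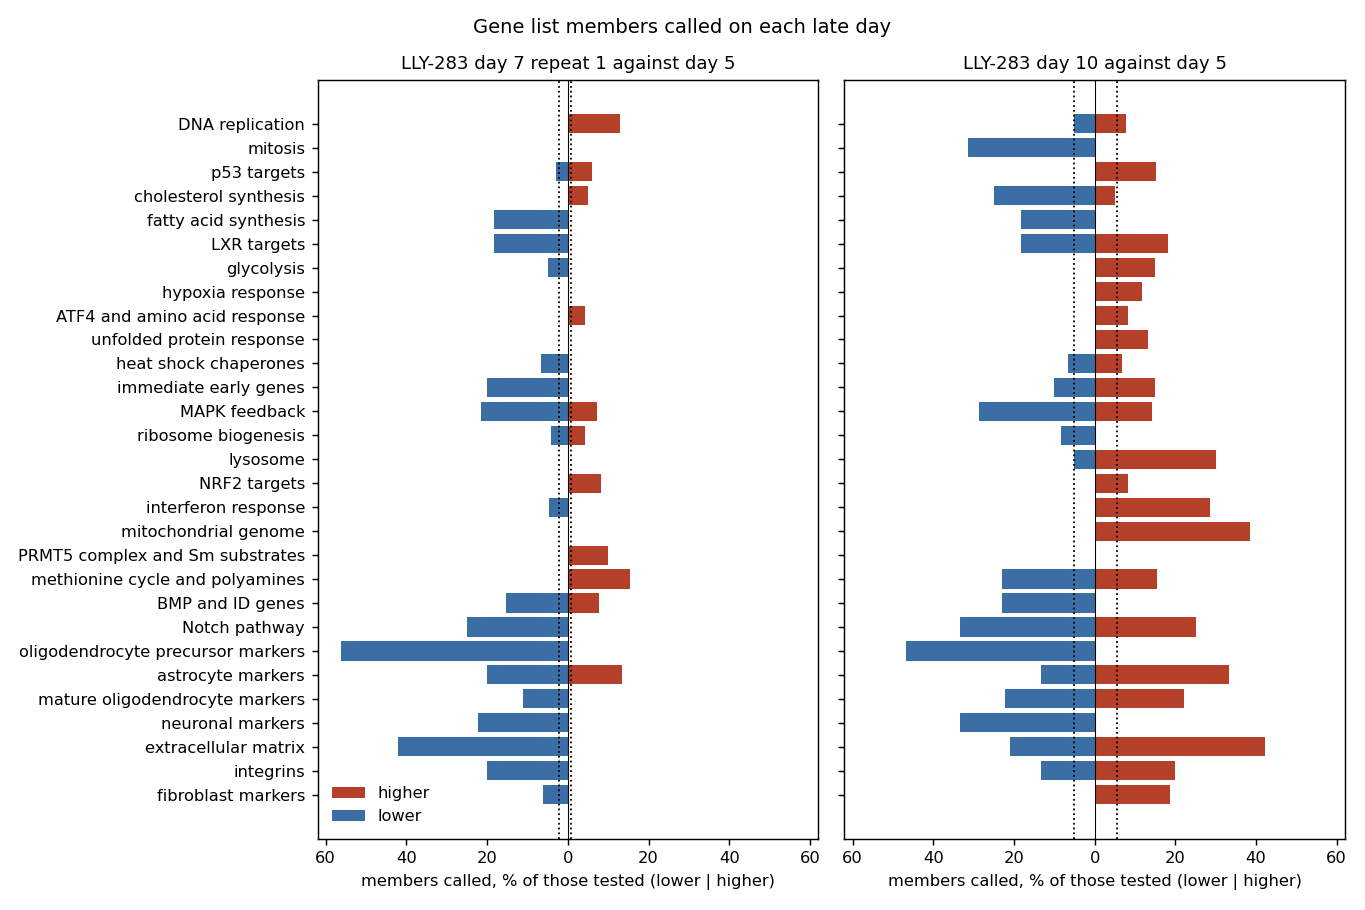
Members of each gene list called lower (left, blue) or higher (right, red) in the day 7 and the day 10 LLY-283 library against day 5, as a percent of the members tested, for lists with at least 9 tested members. Dotted lines are the shares over all genes tested (2.19% lower and 0.844% higher at day 7, 5.07% and 5.62% at day 10), and the oligodendrocyte precursor markers have the longest bar to the left on both days.

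The treatment difference of day 5 was carried to the late libraries as a description, since the choice of libraries rested on resemblance to vehicle. At day 5, 6060 of 16491 genes differed between LLY-283 and vehicle (36.7%), 2913 higher (17.7%) and 3147 lower (19.1%). On a scale where the mean of vehicle day 5 is 0% and that of LLY-283 day 5 is 100%, the day 5 LLY-283 libraries lay at 92.9%, 104% and 104%, day 7 at 73.4% and day 10 at 93.7%. The vehicle library of day 7 lay at 0.0219% and that of day 10 at 59.1%, so the treatments lay closer at day 10 than at day 5, with the vehicle value higher and the LLY-283 value within the range of its day 5 libraries. The library left out, labelled LLY-283 day 7 repeat 2, lay at -5.06%. The day 7 library that was kept was lower on the scale for genes raised at day 5 (65.8%) than for genes lowered at day 5 (86%). Of 2913 genes raised at day 5 and tested late, 9 were called lower and 1 higher in late culture. Of 3134 lowered at day 5 and tested late, 1 was called lower and 2 higher. Over all genes tested, 0.0625% were called lower and 0.0227% higher. The same LLY-283 day 5 libraries define these genes and are the baseline of the late comparison. A return toward vehicle is thereby favored in advance, and these counts and the positions above are a description only.

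**Figure D4:**
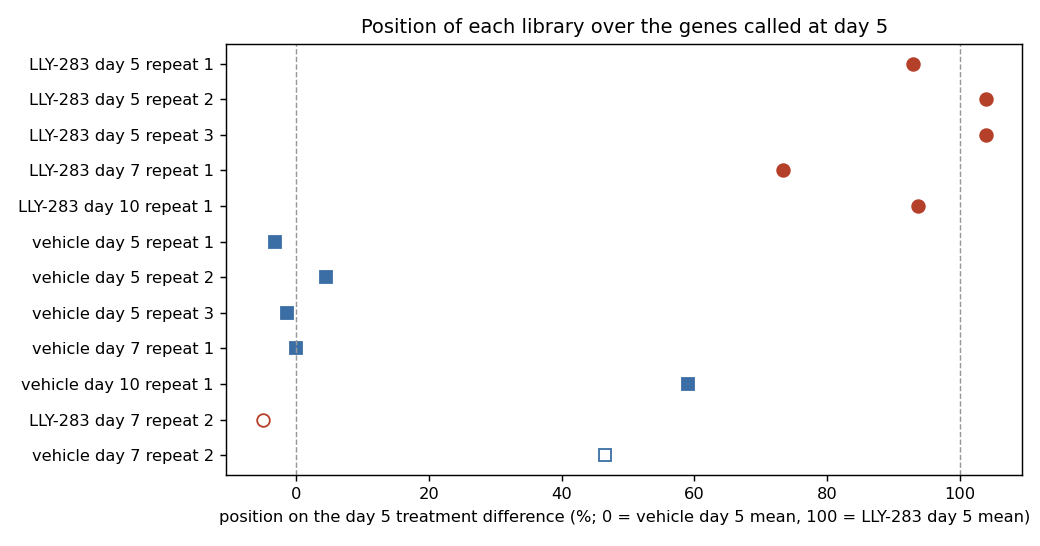
Position of each library on the day 5 treatment difference over the 6060 genes called at day 5, in percent, with 0 the vehicle mean and 100 the LLY-283 mean of day 5. The late LLY-283 libraries lie at 73.4% and 93.7% and the vehicle library of day 10 at 59.1%, and open symbols are the libraries labelled day 7 repeat 2.

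Several genes with the largest day 5 effects kept, lost or passed their day 5 level in late culture, a description with the same shared baseline. MAOB, monoamine oxidase B, was at 27.6, 29.5 and 23.4 CPM at day 5, at 12.2 CPM at day 7 and at 21.7 CPM at day 10, and only the day 7 library was called lower (-1.12, edgeR adjusted p 0.00055). TLL1, a tolloid-like protease, was at 22.1, 18.5 and 17 CPM at day 5 and at 13.6 and 12.1 CPM late (-0.56, edgeR adjusted p 0.16). COL9A1, at 10.8 and 10.2 CPM late, remained above the 5 vehicle libraries compared, which lay between 3.52 and 5.23 CPM. The library labelled LLY-283 day 7 repeat 2 was at 8.58 CPM for KCNJ10, below all 5 LLY-283 libraries compared. With that library taken at its label the late comparison called 1 gene in place of 15, BCAN.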

How the data were processed

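Polyadenylated RNA of HSJD-DIPG-007 spheroids was sequenced as paired reads from directional libraries. After trimming, the authors quantified the reads on the hg38 transcriptome with kallisto (version not given in the sources used here). The authors deposited estimated counts per gene, which are whole numbers, needed no rounding and are not normalized. Of 58676 gene identifiers, 58207 were matched to a symbol. The deposited table holds no other per-sample columns.

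Late LLY-283 (day 7 repeat 1 and day 10) was tested against day 5 with edgeR 4.0.16 in R 4.3.3, by robust quasi-likelihood tests on TMM-scaled counts, with the filter on low counts by group, Benjamini-Hochberg adjustment and a threshold of 0.05. Vehicle, the difference of the late changes, and each late day alone were fitted likewise. Standard errors were taken from the fold change and its F statistic and are approximate. DESeq2 1.42.0 was an alternative, beside other scalings and filters, a stricter threshold, a replicate block and leaving out each library.

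Named genes were the up to 10 largest called increases and 10 largest decreases with a symbol, at least 5 CPM on average and both late libraries outside the day 5 range, the 3 list members of smallest p per list, the largest day 5 effects, and PRMT5. The members and lists were chosen with earlier results of these data known. The lists came from general knowledge. Scripts were tested on simulated data. The other days were not analysed here, and 1 gene counted among the calls is not reported here.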

Additional observations from a re-analysis of the deposited data

Results flagged for a closer look

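The library labelled vehicle day 7 repeat 2, which entered no comparison, lay at 46.5% of the way from the vehicle to the LLY-283 mean of day 5, above the 3 vehicle libraries of day 5, which lay between -3.21% and 4.55%. It was singled out as a signal in a library outside the comparisons that exceeds the level of the controls. Its partner, labelled LLY-283 day 7 repeat 2, lay at -5.06%. Why they lie there was not tested, and the labels were used as given.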

How the results depend on the processing

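Late LLY-283 against day 5 (15 genes) called 6 genes at a threshold of 0.01, 138 with DESeq2 (30 higher, 108 lower), 443 with no filter on low counts, 27 with at least 10 counts in every library, 1 with all libraries as labelled, 1984 with day 10 alone and 564 with day 7 alone, and between 0 and 7 without 1 day 5 library (without replicate 1, 2 or 3: 0, 7 and 3). It called 15 with DESeq2's size factors, 18 with library size alone and 13 with all 10 libraries in 1 fit. The named called genes kept their direction in all of these. For either late day alone this followed from the rule by which they were named. Late vehicle (0 genes) gave 29 with DESeq2, 479 with no filter, 5150 with day 10 alone and 385 with day 7 alone. The difference of the late changes (0 genes) gave 9 with DESeq2, 79 with no filter, 1168 with day 10 alone, 24 with day 7 alone and 78 with day as a term (chosen after the values were seen), and between 0 and 660 when 1 library was left out (660 without vehicle day 7, 6 without vehicle day 10, 1 without vehicle day 5 repeat 2). Where the late group is 1 library or the spread over days is modelled, the construction itself removes the change between days from the spread; the other causes were not tested. Against the mean of the late libraries, POSTN (-0.545) and MATN2 (-0.283) reversed with day 7 alone and ACAT2 (-0.278) with day 10 alone.

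With a replicate block, the difference of the late changes called 50 genes. This block joins the LLY-283 and vehicle libraries of the same day and repeat number. It therefore also takes the change from day 7 to day 10 out of the spread, as the day term does. Deviations of same-numbered day 5 libraries correlated at 0.015, -0.04 and 0.00045. No shared deviation by repeat number was seen, but so few libraries cannot settle whether the numbers pair them. With the repeat number as a replicate block within a treatment, chosen after the values were seen, late LLY-283 called 5 genes (2 higher, 3 lower; KCNJ10 the only one of the named) and late vehicle 39. These fits leave 1 residual degree of freedom and take the late change from day 5 repeat 1, the only day 5 library that shares the late libraries' number.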
